A study of Mus musculus with 29 samples.

Results

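Beta-catenin deletion was compared with Smo deletion in fibroblasts around the mouse common bile duct. The comparison sets 3 libraries labelled Ctnnb1FF against 4 labelled SmoFF, which are 7 of the 29 libraries of the study and 7 of the 23 libraries made from the Pdgfra lineage, and it takes in all genes. Each library holds RNA from about 1000 peribiliary mesenchymal cells that were sorted, per the labels, from the duct of a single animal. All animals compared here carried Pdgfra:CreERT2 and Rosa26:lox-STOP-lox-tdTomato, so that Cre is driven by the Pdgfra promoter and recombined cells turn on a red fluorescent protein. FF is read by the convention of mouse genetics as a pair of alleles with loxP sites around part of the gene. The labels name neither the flanked exons, nor an induction scheme, nor the age of the animals. The 5 wild type libraries, which carry the Cre driver and the reporter alone, are shown beside the 2 groups. One of these, replicate 5, is called wild type in its title and genotype but SmoFF in its description, and Smo stood there inside the range of the other wild type libraries.

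Wnt ligands act by stabilising beta-catenin, the product of Ctnnb1, which enters the nucleus and works with the TCF and LEF factors on target genes such as Axin2. Beta-catenin also links cadherins to the actin cytoskeleton at adherens junctions, where plakoglobin can stand in for it. Hedgehog ligands bind Ptch1, which then releases the membrane protein Smo, and Smo acts through the Gli factors on targets that include Ptch1, Hhip and Gli1. Both pathways are known for their roles in fibroblasts of the gut and bile duct, where fibroblasts and the epithelium exchange such signals.

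Total counts were 22586122 to 32912594 in Ctnnb1FF and 18606446 to 24652617 in SmoFF. The makeup of the RNA moved with the genotype. Ctnnb1FF libraries detected 15892 to 17726 genes, below the 20583 to 22957 of SmoFF, and mitochondrial transcripts took 7.26 to 7.85% of counts against 4.14 to 5.99%. Each of these differences had exact permutation p = 0.0286, two-sided, the smallest p that 3 against 4 libraries allow. The ribosomal RNA locus CT010467.1 took 28 to 34.4% of counts in Ctnnb1FF and 10.2 to 29.6% in SmoFF (exact permutation p = 0.114). The part of these measures in the gene results was not tested, save that the share of the ribosomal RNA locus was tried as a covariate. A set of 842 pseudogenes was picked as high in wild type 1 to 3 and low in wild type 4 and 5. Its median was −2.98 to −2.69 log2 CPM in Ctnnb1FF and −3.88 to −3.06 in SmoFF. It was 0.32 to 0.33 in wild type 1 to 3 and −4.35 and −3.92 in wild type 4 and 5, a gap fixed by the pick. The 2 groups were set against each other with their low level in this measure known. All 3 Ctnnb1FF libraries carried the female transcript Xist, as did SmoFF replicates 1 and 4, while SmoFF replicates 2 and 3 had it at or near 0. The Y-linked Ddx3y stood at 0.0560, 0 and 0.100 CPM over the Ctnnb1FF libraries and 8.48, 52.6, 58.6 and 13.9 over the SmoFF libraries, so SmoFF replicates 1 and 4 carried both transcripts. Whether those 2 libraries hold RNA of a single animal was not tested. The sorted cell type was checked against 10 fibroblast markers, whose summed level was 37030.5 to 41128 CPM in Ctnnb1FF and 26907 to 32021 in SmoFF, with Pdgfra itself at 253, 207 and 268 CPM against 162, 118, 224 and 183 and not called (edgeR adjusted p = 0.0625, against 0.000396 with the length and GC offsets described below). CPM stands here for counts relative to the library size after TMM scaling, which corrects for RNA composition.

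Of 24383 genes tested, 5754 (23.6%) passed edgeR's quasi-likelihood test at a Benjamini-Hochberg adjusted p under 0.05, which is what "called" means in what follows. Called genes were higher in Ctnnb1FF for 2409 (9.88% of those tested) and lower for 3345 (13.7%). Among the 8751 genes of at least 3 mean log2 CPM, 3371 (38.5%) were called. The list counts below are to be read beside these shares, and no list was tested as a set. Without Ctnnb1FF replicate 1, 2 or 3 the number lower was 2272, 1726 or 2287 and the number higher 2380, 2128 or 2458, so higher genes were then the majority. Upper quartile scaling gave 2809 higher and 2749 lower. Scaling on protein-coding genes, without ribosomal protein and mitochondrially encoded genes, gave 2719 and 2814. The median log2 change over all genes tested was −0.51, against −0.33 with upper quartile scaling, and values below are given unshifted, as Ctnnb1FF minus SmoFF. Each p-value rests on a spread estimated over all Pdgfra libraries, those outside the comparison among them. With only the 7 libraries compared in the fit, 3528 genes were called. In bulk RNA, fewer cells of a type and less RNA per cell cannot be told apart.

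The change also followed the length and base composition of transcripts. Among 7941 protein-coding genes of at least 3 mean log2 CPM, the median log2 change was 0.65 in the shortest quintile of transcripts and −0.43 in the longest, and it was 0.15 in the quintile of lowest GC content and −0.65 in that of highest. An added fit, with length and GC offsets per library, brought these medians to between −0.05 and 0.06. It called 1457 genes higher (6.14%) and 2778 lower (11.7%) of 23725, and 3168 genes were called in both fits in the same direction, with 57 in opposite directions, of 5623 called genes with a length and GC value. The offset fit is cited below for each gene whose call it ends, whose direction it turns or whose fold change it moves by over 1.5 times, and for each list whose balance of higher and lower genes it turns. Whether length and GC dependence stems from the genotypes or from the libraries was not tested.

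**Figure D1:**
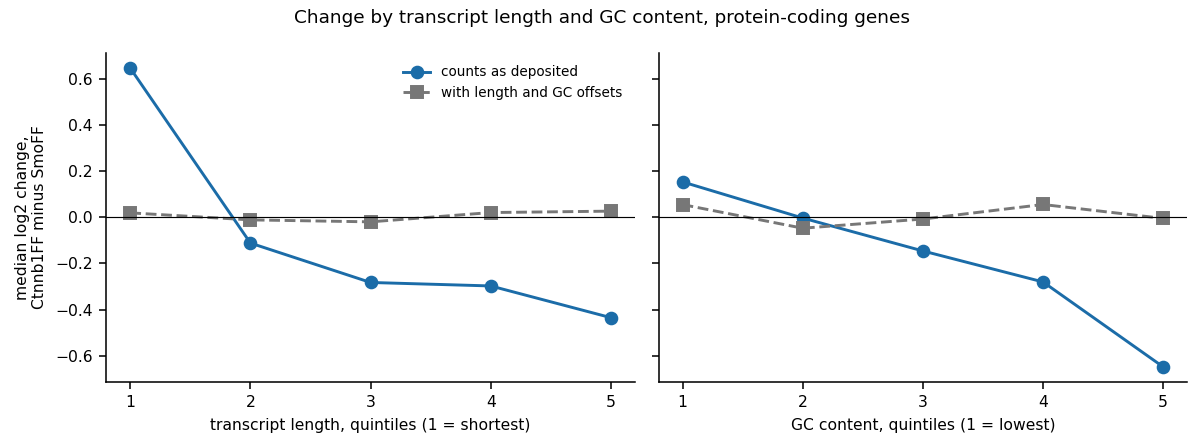
Median log2 change, Ctnnb1FF minus SmoFF, over quintiles of 7941 protein-coding genes ranked by transcript length (left) and GC content (right). Circles show the fit on counts as deposited, which runs from 0.65 to −0.43 over length, and squares the fit with length and GC offsets, which stays near 0.

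The starts of 4 genes of the Wnt and Hedgehog pathways are shown first, since the factors of these pathways read DNA in such regions, and those of 3 ribosomal protein genes as examples of windows with an ETS-type motif before the start. Each is a stretch of 100 bases before the transcription start, from RefSeq windows in build GRCm38.p6 that run from 250 bases before the start to 50 after it. Capitals mark, on either strand, CTTTGA, the core of the TCF and LEF motif, in the 2 Wnt targets, CCACCCA, the core of the Gli motif, in the 2 Hedgehog targets, and CCGGAAG, an ETS-type motif common at ribosomal protein genes, in the last 3, and other motifs are not marked. The Axin2 and Ptch1 windows hold no match to their pathway's motif, the Grem1 window holds CCACCCA starting 224 bases before the start, and the window of Tnfrsf19, a TNF receptor family member on the Wnt target list, holds the TCF and LEF core on the opposite strand, starting 201 bases before the start. The runs of Grem1 and Tnfrsf19, placed so as to hold the match, go from 250 to 151 bases before the start and the others from 100 to 1. Grem1 is the 1 gene of 10 Hedgehog targets whose window holds CCACCCA, and the Tnfrsf19 window was taken for holding its motif.
Axin2, chr11:108920249-108920348, plus strand: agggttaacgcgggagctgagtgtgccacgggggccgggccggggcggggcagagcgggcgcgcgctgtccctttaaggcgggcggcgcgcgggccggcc
Ptch1, chr13:63565736-63565835, minus strand: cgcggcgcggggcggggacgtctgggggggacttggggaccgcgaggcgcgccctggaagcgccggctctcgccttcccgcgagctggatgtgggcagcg
Grem1, chr2:113758799-113758898, minus strand: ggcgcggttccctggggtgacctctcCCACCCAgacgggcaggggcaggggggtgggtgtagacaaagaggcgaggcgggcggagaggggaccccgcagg
Tnfrsf19, chr14:61038138-61038237, minus strand: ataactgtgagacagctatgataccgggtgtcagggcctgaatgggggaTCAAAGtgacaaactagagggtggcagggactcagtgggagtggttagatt
Rpl19, chr11:98026610-98026709, plus strand: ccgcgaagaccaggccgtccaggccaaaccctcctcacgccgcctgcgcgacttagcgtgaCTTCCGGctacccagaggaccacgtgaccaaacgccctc
Rpl37, chr15:5116513-5116612, plus strand: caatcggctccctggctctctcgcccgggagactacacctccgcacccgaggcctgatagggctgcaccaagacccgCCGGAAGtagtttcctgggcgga
Rps25, chr9:44407614-44407713, plus strand: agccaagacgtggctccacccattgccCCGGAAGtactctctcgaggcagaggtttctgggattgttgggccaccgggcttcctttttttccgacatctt

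Over whole windows, CTTTGA or its complement lay at 3 of the 14 tested Wnt target genes with a window, against 16% of all 32851 windows and 18.2% of all genes. CCACCCA lay at 1 of 10 Hedgehog target genes, against 10.6% of all genes, and the longer ACCACCCA at 0 of 10, against 1.72%. CCGGAAG lay at 15 of 37 ribosomal protein genes, or 40.5%, against 9.93% of all genes. These matches describe letters in the window and say nothing of whether a factor binds there. Tnfrsf19 changed by −1.26 between the groups (edgeR adjusted p = 0.0304), at 8.46, 11.4 and 7.2 CPM in Ctnnb1FF against 26.8, 9.82, 25.4 and 24.5 in SmoFF. Its call was lost in 13 of 22 alternatives, among them leaving out any Ctnnb1FF library or SmoFF replicate 1, 3 or 4 (adjusted p = 0.0503 to 0.137).

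Smo itself marked the SmoFF libraries. Smo, on chromosome 6 from 29735503 to 29761365 in build mm10, stood at 34.6, 23.5 and 34.4 CPM in Ctnnb1FF, 9.05, 7.78, 6.81 and 7.85 in SmoFF and 36.2, 25.5, 22.6, 35.1 and 28.7 in wild type. The SmoFF libraries lay below all others, and the Ctnnb1FF and wild type libraries overlapped. The log2 change between the deletions was 1.97 (SE 0.24, edgeR adjusted p = 4.26e-06), and 2.9 with length and GC offsets, and against wild type SmoFF was lower by a log2 change of −1.91 (edgeR adjusted p = 3.06e-05).

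Ctnnb1 did not mark the Ctnnb1FF libraries in the same way. The gene, on chromosome 9 from 120929216 to 120960507, stood at 47.9, 44 and 38 CPM in Ctnnb1FF, 69.2, 47.5, 42 and 64.4 in SmoFF and 64.2, 58.1, 63.3, 53.8 and 53.2 in wild type. The groups compared overlapped, while all Ctnnb1FF libraries lay below all wild type libraries, with no call between them (edgeR adjusted p = 0.108). The log2 change of −0.37 (SE 0.20) was not called (edgeR adjusted p = 0.169). With SmoFF replicates 1 and 4 alone it was −0.67 and called (edgeR adjusted p = 0.0365), and with length and GC offsets it was −0.01. Those 2 libraries carry Xist as Ctnnb1FF does, but also Ddx3y, so the subset does not match Ctnnb1FF in sex-linked transcripts. Reads from exons outside the flanked part stay in the gene's count, so this count alone does not measure how far the allele was recombined.

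Called targets of Hedgehog signalling lay in both directions between the deletions. Ptch1, the Hedgehog receptor and a feedback target, was at 58.1, 117 and 85.4 CPM in Ctnnb1FF, 24.6, 27.6, 32.9 and 34 in SmoFF and 20.5, 37, 30.4, 29.9 and 36 in wild type. All Ctnnb1FF libraries lay above all of the others, with a log2 change of 1.54 (SE 0.36, edgeR adjusted p = 0.00351), or 2.19 with length and GC offsets. Limma voom with sample quality weights did not call Ptch1 (adjusted p = 0.063). Hhip, a membrane protein that binds and sequesters Hedgehog ligand, was at 20.4, 19.6 and 16.5 CPM against 2.65, 1.63, 0.239 and 1.05, and at 1.37, 7.66, 3.59, 1.27 and 14.4 in wild type. Its log2 change was 3.76 (SE 0.79, edgeR adjusted p = 0.0015), and wild type reached from the SmoFF level to just below that of Ctnnb1FF. Grem1, which encodes a secreted antagonist of BMP ligands, was at 91.2, 39 and 109.9 CPM in Ctnnb1FF and 10.9, 11.1, 5.93 and 8.55 in SmoFF, a log2 change of 3.13 (SE 0.61, edgeR adjusted p = 0.000747). Wild type Grem1 lay at 2.0 to 12.5 CPM and overlapped SmoFF.

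Gli1, the most widely used readout of Hedgehog activity, went the other way. It was at 0.952, 1.8 and 4.3 CPM in Ctnnb1FF, 12.3, 4.29, 12.7 and 18.9 in SmoFF and 13.4, 8.47, 7.95, 12.2 and 26.9 in wild type, and Ctnnb1FF replicate 3 lay just above SmoFF replicate 2, so the groups overlapped. The log2 change was −2.35 (SE 0.72, edgeR adjusted p = 0.0221). The call was lost without Ctnnb1FF replicate 1 (−1.85, adjusted p = 0.101), Ctnnb1FF replicate 2 (−2.08, adjusted p = 0.0909) or SmoFF replicate 4 (−2.09, adjusted p = 0.0519), stood at −2.97 without Ctnnb1FF replicate 3, and was lost with length and GC offsets (−1.22, adjusted p = 0.164). It was also lost with limma voom, with only the 7 libraries in the fit and with the ribosomal RNA share as a covariate. SmoFF and wild type overlapped in Gli1, with no call between them. Gli3, the factor that mostly represses targets when no ligand is present, was at 13.2, 16.2 and 8.35 CPM against 49.3, 21.6, 48.1 and 50.2, a log2 change of −1.75 (SE 0.34, edgeR adjusted p = 0.000736), or −1.15 with the offsets. Gli2, the main activator, was at 10.5, 13.4 and 5.55 CPM against 29.2, 11.5, 16.5 and 11.7 and was not called (−0.81, edgeR adjusted p = 0.189), with a change of 0.39 under the offsets.

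Of the 18 Hedgehog target genes tested, 3 were higher and 4 lower, with a median log2 change of 0.07 beside −0.51 over all genes. Of all genes 9.88% were higher and 13.7% lower, and 38.5% of those with at least 3 mean log2 CPM were called. The lower count fell to 1 without Ctnnb1FF replicate 1 or 2, and with the offsets 4 were higher and 1 lower. Igfbp6, an IGF binding protein of fibroblasts, was among the lower ones, at 364, 468 and 511 CPM against 1058, 992, 779 and 784 (−1.01, edgeR adjusted p = 0.00144). Of 21 receptors and transducers, 2 were higher and 6 lower, with a median of −0.81, and the lower count was 3 without Ctnnb1FF replicate 1 or 2 or SmoFF replicate 4, and with the offsets. Both kinases named by the rule were lower in Ctnnb1FF. Grk2, a kinase that phosphorylates active Smo, was at 6.05, 1.92 and 1.9 CPM against 15.4, 9.59, 22.7 and 24.3 (−2.46, edgeR adjusted p = 0.000522, and −1.57 with the offsets). Without Ctnnb1FF replicate 1 the change of Grk2 was −3.09. Prkaca, the catalytic subunit of protein kinase A, which primes Gli factors for processing, was at 16.7, 14.2 and 9.4 CPM against 37.7, 49.9, 27.8 and 30.2 (−1.44, edgeR adjusted p = 0.00264).

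**Figure D2:**
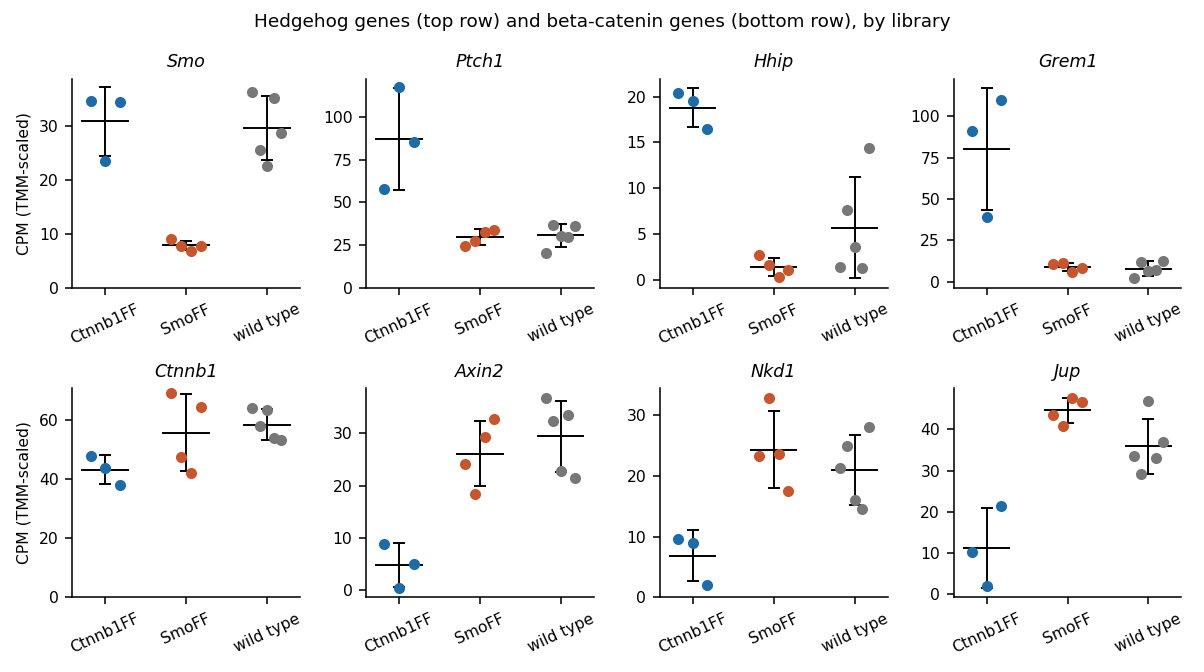
CPM after TMM scaling of 4 Hedgehog genes (top) and 4 beta-catenin pathway or junction genes (bottom) in each library of Ctnnb1FF (3), SmoFF (4) and wild type (5), with the mean as a bar and the SD as error bars. SmoFF libraries lie below all others in Smo, Ctnnb1FF libraries lie above all others in Ptch1 and Grem1 and below all others in Axin2, Nkd1 and Jup, and Ctnnb1FF and SmoFF libraries overlap in Ctnnb1.

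Called targets of beta-catenin were mostly lower in Ctnnb1FF. Axin2, a scaffold of the complex that degrades beta-catenin and a common readout of the pathway, was at 8.85, 0.470 and 5.0 CPM in Ctnnb1FF, 24.1, 18.4, 29.3 and 32.7 in SmoFF and 36.8, 32.4, 22.9, 33.5 and 21.5 in wild type. No Ctnnb1FF library reached any other, and SmoFF overlapped wild type. The log2 change was −2.46 (SE 0.58, edgeR adjusted p = 0.00347) against SmoFF and −2.63 (edgeR adjusted p = 0.00214) against wild type. It was −1.74 with length and GC offsets, −3.15 without Ctnnb1FF replicate 1 and −1.82 without Ctnnb1FF replicate 2, and the fit of only the 7 libraries did not call it (adjusted p = 0.057). Nkd1, an inducible brake on Dishevelled, was at 9.58, 8.97 and 2.1 CPM against 23.2, 32.8, 23.6 and 17.5, and at 14.6 to 28.1 in wild type (−1.82, edgeR adjusted p = 0.00415), a call that the offsets ended (−1.22, adjusted p = 0.0602).

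Fgf18, a growth factor gene that responds to Wnt, showed a wider gap. It was at 0.560, 2.35 and 0.500 CPM in Ctnnb1FF and 19.3, 19.4, 23.5 and 34.8 in SmoFF, with wild type at 6.24 to 29.4 (−4.39, SE 0.92, edgeR adjusted p = 0.00147). The change was −5.17 with the offsets and −5.4 without Ctnnb1FF replicate 2. Bambi, a decoy receptor of the TGF-beta family and a Wnt target, went against the others, at 29.1, 37.1 and 27.4 CPM against 15.1, 21.4, 12.1 and 12.5 (1.03, edgeR adjusted p = 0.0228). Its call was lost without Ctnnb1FF replicate 2 (0.98), SmoFF replicate 1 (0.98), replicate 3 (0.88) or replicate 4 (0.89). Lef1, one of the nuclear partners of beta-catenin, had 0 counts over the Ctnnb1FF libraries and 0, 2.19, 0 and 0.155 CPM in SmoFF, and was not called (edgeR adjusted p = 0.0832). Of 24 tested Wnt target genes 1 was higher and 6 lower, with a median of −1.05, and with the offsets 2 were higher and 2 lower. Without SmoFF replicate 4 the counts were 0 and 3.

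Plakoglobin and an adhesion receptor of the junction were also lower in Ctnnb1FF. Jup, which encodes plakoglobin, the closest relative of beta-catenin, was at 10.4, 2.04 and 21.4 CPM in Ctnnb1FF, 43.4, 40.8, 47.5 and 46.6 in SmoFF and 33.5, 29.1, 46.8, 33 and 36.9 in wild type. The Ctnnb1FF libraries lay below all of the others (−1.99, SE 0.44, edgeR adjusted p = 0.00235), with −1.38 without Ctnnb1FF replicate 2 and −2.75 without Ctnnb1FF replicate 3. Neither the offsets (−1.07, adjusted p = 0.0671) nor the fit of only the 7 libraries (adjusted p = 0.0561) called Jup. Nectin1, an adhesion receptor of the same junctions, was at 6.61, 5.21 and 5.8 CPM against 21.1, 11.1, 27.9 and 24.4 (−1.84, edgeR adjusted p = 0.000934) and was not called with the offsets (−0.58, adjusted p = 0.211). In all, 1 of 21 genes of beta-catenin and the adherens junction was higher and 3 lower, and with the offsets none was called.

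Wnt ligands and their secreted modulators, where called, were mostly lower in Ctnnb1FF on the counts as deposited but not with the offsets. Of 13 Wnt ligand genes tested, 0 were higher and 3 lower, with a median of −1.41, and with the offsets 1 was higher and 0 lower. Without Ctnnb1FF replicate 1 the counts were 1 and 1. Wnt4 was at 6.94, 13.2 and 3.65 CPM in Ctnnb1FF, 21.1, 53.5, 21.3 and 29.1 in SmoFF and 2.45, 6.33, 7.7, 6.84 and 5.64 in wild type, so that SmoFF was the group that stood apart. Against wild type SmoFF was higher in Wnt4 by 2.43 (edgeR adjusted p = 0.00134), and the change between the deletions was −1.97 (edgeR adjusted p = 0.00275), a call that the offsets ended (−1.17, adjusted p = 0.0899). Wnt5a, the main ligand of the pathway branch that works without beta-catenin, was at 56.9, 74.4 and 79.6 CPM against 106, 105, 129.6 and 172 (−0.86, edgeR adjusted p = 0.00314), and lost its call with the offsets (−0.5) and without Ctnnb1FF replicate 1 (−0.59).

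Among 16 secreted Wnt modulators 1 was higher and 4 lower, with 3 and 3 under the offsets and 3 and 4 under upper quartile scaling. Rspo1, which raises Wnt receptors on the receiving cell, was at 13.7, 7.99 and 22.1 CPM against 78.4, 97.4, 57.2 and 84, with wild type at 27.9 to 61.5, overlapping SmoFF (−2.44, SE 0.47, edgeR adjusted p = 0.000605). Sfrp2, a secreted Wnt binding protein, was at 16.9, 14.3 and 22.5 CPM against 91.8, 55.4, 105 and 73.5 (−2.19, SE 0.38, edgeR adjusted p = 0.000246), and wild type lay above both, at 120.0 to 245. Its relative Sfrp4 was at 24.7, 42.4 and 63.4 CPM against 190.0, 108, 144 and 150.2 (−1.77, edgeR adjusted p = 0.00287). The groups did not overlap in any of these.

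Of 35 receptors and intracellular transducers of Wnt, 0 were higher and 10 lower, with a median of −0.77, and 3 were lower with the offsets or without Ctnnb1FF replicate 2. Pygo2, a coactivator in the beta-catenin complex, was at 3.58, 7.4 and 9.1 CPM against 26.1, 21.3, 22.2 and 26.1 (−1.84, edgeR adjusted p = 0.000334, and −0.9 with the offsets). Tcf7l1, a DNA-binding partner that mostly represses, was at 17.9, 16.3 and 23.2 CPM against 49.8, 55, 48.6 and 46.6 (−1.39, edgeR adjusted p = 0.000586). It was not called with the offsets (−0.43, adjusted p = 0.196).

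The largest rises in Ctnnb1FF took in small structured RNAs and a few secreted or membrane proteins. Rn7sk, the RNA that holds the elongation factor P-TEFb inactive, was at 1637, 1639 and 2743 CPM in Ctnnb1FF and 43.5, 64.4, 38.9 and 40.8 in SmoFF (5.42, SE 0.33, edgeR adjusted p = 7.56e-10, and 4.11 with the offsets). Rn7s1 and Rn7s2, copies of the RNA of the signal recognition particle, were at 782 to 1671 against 17.6 to 51.5 CPM (5.01) and 532 to 1175 against 8.94 to 25.7 CPM (5.38), or 4.05 and 4.41 with the offsets. The 2 copies are near-identical, so reads may be split between them. Mgp, an inhibitor of calcification that also binds BMP ligands, was at 4286, 5951 and 2459.5 CPM against 214, 118, 161 and 205, with wild type at 272 to 481 (4.6, SE 0.31, edgeR adjusted p = 2.13e-09, and 2.8 with the offsets). Against wild type, Ctnnb1FF was higher in Mgp by 3.4 and SmoFF lower by a log2 change of −1.2 (edgeR adjusted p = 3.85e-08 and 0.0156), 2 comparisons that share their wild type libraries.

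Apod, a lipid-carrying secreted protein, was at 578, 436 and 445 CPM against 16.2, 12.4, 43.4 and 11.2 (4.55, edgeR adjusted p = 0.000373). It was 5.15 without SmoFF replicate 3, the library with the highest SmoFF value. Ifitm1, an interferon-induced membrane protein, was at 1029, 1619 and 513 CPM against 82.1, 72.5, 90.4 and 37.2 (3.9, edgeR adjusted p = 3.58e-06, and 2.48 with the offsets). Ccl19, a chemokine that draws dendritic cells and T cells through CCR7, was at 149, 164 and 92.7 CPM against 12.2, 11.8, 11.9 and 7.5, with wild type at 15.1 to 17 (3.64, edgeR adjusted p = 2.17e-07, and 2.66 with the offsets). In each of these the groups are apart by the naming rule, and SmoFF overlapped wild type or lay below it.

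The rest of the 12 largest rises were genes of translation and of mitochondria and the secretory route. Lars2, the mitochondrial leucyl-tRNA synthetase, was at 7241, 5646 and 10810.0 CPM against 1358, 531, 347 and 532 (3.51, edgeR adjusted p = 5.46e-06). In each group it was highest where the ribosomal RNA locus took most counts, 34.4% in Ctnnb1FF replicate 3 and 29.6% in SmoFF replicate 1. SmoFF replicates 2 and 4 were level in Lars2, with shares of 10.2 and 23.3%. The call held in all 22 alternatives, that share as a covariate among them, and a link between the 2 was not tested further. Mrps28, a mitochondrial ribosomal protein, was at 65.5 to 117 CPM against 4.14 to 16.9 (3.45, or 2.33 with the offsets), and Ost4, a small subunit of the complex that attaches N-glycans, at 90.6 to 183 against 9.84 to 17.2 (3.32, or 2.27). The remaining 2, Rpl34 and Rps27, are described with the ribosomal proteins.

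**Figure D3:**
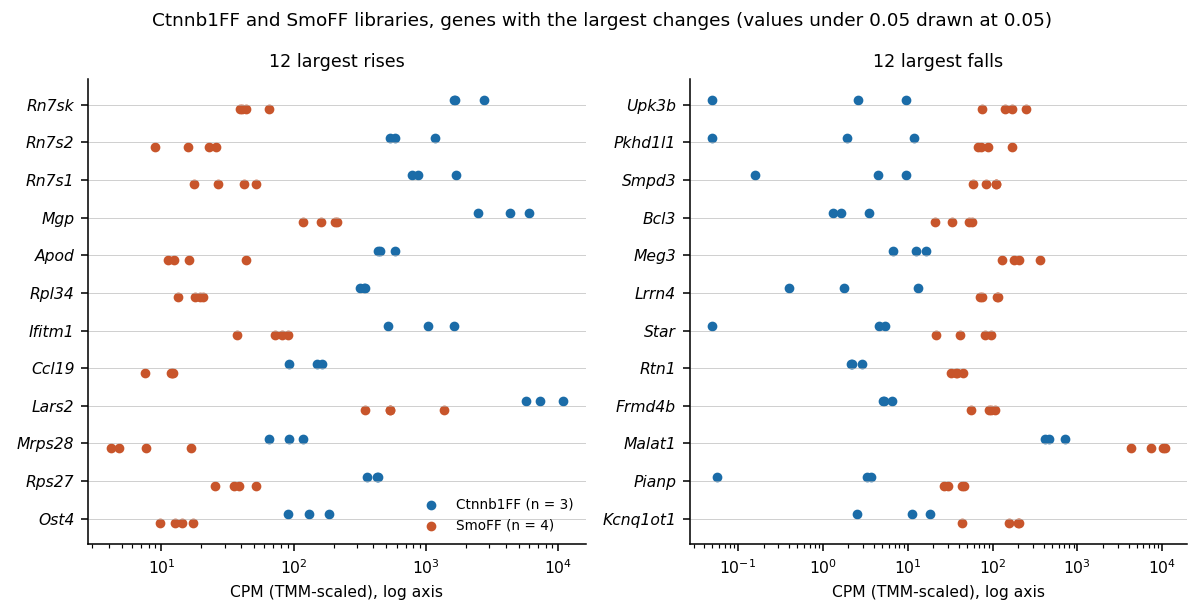
CPM on a log axis of the 12 called genes with the largest rise (left) and the 12 with the largest fall (right) in Ctnnb1FF (blue, 3 libraries) against SmoFF (orange, 4 libraries), by the naming rule. The groups are apart in each by the rule, and the largest changes are those of Rn7sk (1637 to 2743 against 38.9 to 64.4 CPM) and Upk3b (0 to 9.52 against 74.2 to 250.5 CPM).

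Nuclear long noncoding RNAs were among the largest falls. Malat1, a nuclear speckle RNA, was at 707, 412 and 467 CPM in Ctnnb1FF, 4333, 7421, 10280.0 and 10644 in SmoFF and 3602, 2624, 5312, 8252 and 9933 in wild type (−3.95, SE 0.66, edgeR adjusted p = 0.000139). Meg3, an imprinted noncoding RNA, was at 16.6, 6.74 and 12.4 CPM against 128, 177, 205 and 365 (−4.2, edgeR adjusted p = 0.000276, and −3.3 with the offsets). Kcnq1ot1, which silences an imprinted cluster, was at 18.4, 2.55 and 11.4 CPM against 43.4, 158, 207 and 198 (−3.82, edgeR adjusted p = 0.00606, and −2.16 with the offsets). With the ribosomal RNA share as a covariate these changes were −2.86, −3.13 and −1.86, and the last of them was not called (adjusted p = 0.0749), nor was it with limma voom. By class of gene, 621 of 3301 pseudogenes were higher and 141 lower, and of 1592 unconfirmed transcripts 6 were higher and 384 lower. Of 1317 antisense genes 27 were higher and 168 lower, shares below the 9.88% and 13.7% of all genes. Without a stated use of strand, antisense reads cannot be told from those of the sense gene.

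Markers of mesothelium, the lining of the abdominal cavity, were among the largest falls. Upk3b, a mesothelial uroplakin, was at 9.52, 2.59 and 0 CPM in Ctnnb1FF, 139, 250.5, 169 and 74.2 in SmoFF and 14, 81.6, 36.4, 14.2 and 66.4 in wild type. The Ctnnb1FF libraries lay below all SmoFF and wild type libraries (−5.31, SE 1.01, edgeR adjusted p = 0.000555), with −6.73 without Ctnnb1FF replicate 1 and −4.62 without Ctnnb1FF replicate 3. Lrrn4, a mesothelial surface protein, was at 13.3, 1.76 and 0.400 CPM against 111, 116, 72 and 75.4 (−4.2, edgeR adjusted p = 0.000856), or −6.25 and −3.55 without those same libraries. Wt1, a transcription factor of mesothelium and some fibroblasts, was at 21.7, 15.5 and 16.8 CPM against 92.7, 125, 158 and 154, with wild type at 63.5 to 90.6 (−2.88, SE 0.33, edgeR adjusted p = 2.78e-06).

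Of 13 mesothelial markers tested, 1 was higher and 7 lower in Ctnnb1FF, with a median of −2.88, and the counts were the same with the offsets. Without Ctnnb1FF replicate 2 or 3 the lower count was 4. The 1 that was higher is C3, a complement gene that fibroblasts also express and which makes up most of the summed level, 9579 to 11984 CPM in Ctnnb1FF and 4896 to 5179 in SmoFF. No mesothelial marker was at 0 in all libraries of either group. The part of mesothelial cells in the genes that were lower was not tested.

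The other large falls named by the rule had varied functions. Bcl3, an atypical inhibitor of the NF-kB family, was at 3.53, 1.65 and 1.3 CPM against 33.1, 21.2, 53.4 and 56.7 (−4.26, SE 0.55, edgeR adjusted p = 9.86e-06, and −3.49 with the offsets). Frmd4b, a scaffold protein, was at 6.5, 5.33 and 5.05 CPM against 91.3, 107, 97 and 55.4 (−3.96, edgeR adjusted p = 6.3e-06), and wild type, at 8.83 to 31.3, lay below SmoFF throughout. Smpd3, a neutral sphingomyelinase, was at 0.157 to 9.55 CPM against 58.5 to 109.7 (−4.27, −3.53 with the offsets, −3.59 without Ctnnb1FF replicate 2 and −5.24 without Ctnnb1FF replicate 3). Star, the carrier of cholesterol into mitochondria for steroid synthesis, was at 0 to 5.35 against 21.5 to 97 (−4.18, and −3.5 without Ctnnb1FF replicate 2). Rtn1, a reticulon of the endoplasmic reticulum, was at 2.13 to 2.9 against 32 to 45 (−3.98, or −3.23 with the offsets). Pkhd1l1, a large membrane protein, was at 0 to 11.8 CPM against 67.5 to 169 (−4.46, or −6.49 and −3.77 without Ctnnb1FF replicates 1 and 3), and Pianp, a ligand of an immune receptor, at 0.0560 to 3.68 against 27 to 45.6 (−3.95, −3.22 with the offsets, or −3.25 without Ctnnb1FF replicate 1).

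Genes of the cytosolic ribosome were higher in Ctnnb1FF almost throughout. Of 49 tested, 47 were higher and 0 lower, against 9.88% and 13.7% of all genes, with a median log2 change of 1.57, and the groups did not overlap in 47, against 27.7% of all genes. With length and GC offsets 35 were higher and 1 lower, with a median of 0.87. The median transcript of the list is 1128 bases long, inside the shortest quintile of genes. In that quintile of the 7941 protein-coding genes, 44.8% were called higher and 8.49% lower on the counts as deposited. In 41 of the 49, the Ctnnb1FF libraries lay beyond all other 20 Pdgfra libraries, as they did in 3.69% of all genes tested. Rps27 was at 361, 434 and 426 CPM against 38.2, 51.5, 35.4 and 25.5 (3.43, SE 0.28, edgeR adjusted p = 3.41e-08, and 2.23 with the offsets). Rpl11, which also restrains Mdm2, was at 276, 268 and 323 CPM against 71.3, 72.7, 46.5 and 48.8 (2.27, edgeR adjusted p = 9.42e-08, and 1.2 with the offsets), and Rpl24 at 166 to 173 against 21.9 to 37.8 (2.51, and 0.96). Of the genes whose starts are shown, Rpl19 was at 542, 541 and 505 CPM against 229, 222, 152 and 145 (1.5, edgeR adjusted p = 5.1e-05, and not called with the offsets at 0.35, adjusted p = 0.0644), Rpl37 at 549 to 718 against 101 to 158 (2.37, or 1.33) and Rps25 at 371 to 382 against 80.9 to 141 (1.73, or 0.96).

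In Rpl34, SmoFF also departed from wild type, as it did in 3 of the 49 genes. Rpl34 was at 339, 346 and 319 CPM in Ctnnb1FF, 19.6, 17.8, 13.3 and 20.6 in SmoFF and 158, 176, 168, 126 and 115 in wild type, so that no group overlapped another and SmoFF was the lowest. The change between the deletions was 4.23 (SE 0.26, edgeR adjusted p = 7.56e-10). Against wild type it was 1.17 in Ctnnb1FF and −3.06 in SmoFF (edgeR adjusted p = 0.000716 and 1.36e-07), 2 comparisons with shared controls. Ribosomal protein genes have many processed pseudogenes, so such counts depend on how reads with several matches were assigned.

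Genes of oxidative phosphorylation in the nucleus moved with them. Of 39 tested, 30 were higher and 2 lower, with a median of 1.53, and with the offsets 21 were higher and 0 lower. The median transcript of this list, at 1249 bases, also lies inside the shortest quintile, where 44.8% of genes were called higher. Cox6c, a subunit of cytochrome oxidase, was at 541, 621 and 442 CPM against 68.9, 100.4, 38.4 and 45.7, with wild type at 68.3 to 96 (3.08, SE 0.28, edgeR adjusted p = 1.38e-07). Sdhd, a membrane anchor of succinate dehydrogenase, was at 161 to 182 CPM against 12.9 to 29.4 (3.08, or 2.14 with the offsets), and Cox5b, another subunit of cytochrome oxidase, at 119 to 161 against 16.6 to 44.2 (2.32, or 0.9). Uqcrh, the hinge protein of complex III, was at 392 to 426 against 73.6 to 147 (1.97) and was not called with the offsets (0.3, adjusted p = 0.187).

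For transcripts of the mitochondrial genome the direction hung on the fit. Of 15 tested, 11 were higher and 0 lower on the counts as deposited, with a median of 1.03, and 0 were higher and 9 lower with the offsets, with a median of −0.82. mt-Rnr1, the small ribosomal RNA of mitochondria, was at 6016, 5189.9 and 7978 CPM against 1155, 1471, 929 and 1133 (2.45, and 0.75 with adjusted p = 0.0797 under the offsets). The cytochrome oxidase subunits mt-Co1, mt-Co2 and mt-Co3 changed by 1.19, 1.53 and 1.07, and under the offsets by 0.17, −0.51 and −0.9, of which the last was called lower. On the counts as deposited, the number called higher was 7 without SmoFF replicate 3 and 6 without SmoFF replicate 4.

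**Figure D4:**
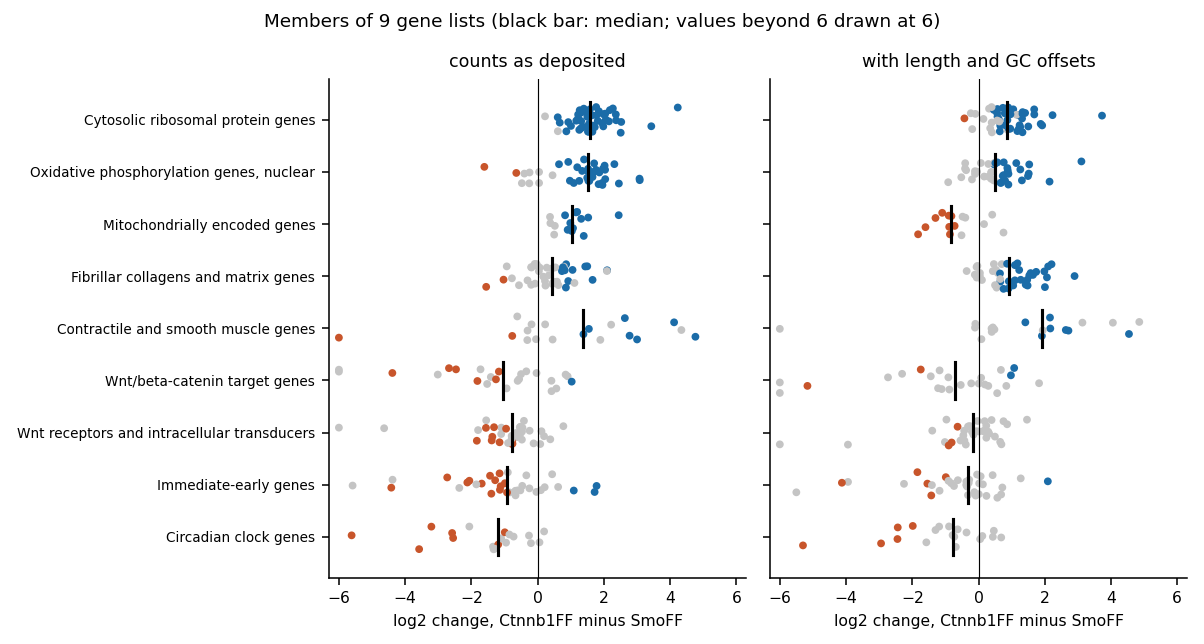
Log2 change, Ctnnb1FF minus SmoFF, of each tested member of 9 gene lists, on the counts as deposited (left) and with length and GC offsets (right), with members called higher in blue, called lower in orange and not called in grey, and the list's median as a black bar. Most ribosomal protein genes lie to the right of 0 in both panels, with 47 and 35 called higher, and mitochondrially encoded genes change sides.

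Matrix genes, where called, were mostly higher in Ctnnb1FF than in SmoFF and mostly lower in both deletions than in wild type. Of 41 fibrillar collagen and matrix genes, 12 were higher and 2 lower, with a median of 0.43, and with the offsets 25 were higher and 0 lower. With SmoFF replicates 1 and 4 alone the counts were 7 and 3, and with the ribosomal RNA share as a covariate 6 and 2. Against wild type 2 were higher and 14 lower in Ctnnb1FF, and 0 higher and 12 lower in SmoFF, where 8.04% and 11.9% of all genes in the first and 0.287% and 1.26% in the second were higher and lower. Lum, a proteoglycan that orders collagen fibrils, was at 3566, 4204 and 3567 CPM in Ctnnb1FF, 1157, 936, 781 and 657 in SmoFF and 1959, 1873, 1846, 1903 and 1555 in wild type, with no overlap among the 3 groups (2.1, SE 0.22, edgeR adjusted p = 1.15e-06). Mfap4, a protein of elastic fibres, was at 331, 532 and 454 CPM against 122, 145, 211 and 145 (1.5, edgeR adjusted p = 0.000548), and at 459 to 709 in wild type. Lox, which crosslinks collagen and elastin, was at 209.5, 192 and 310.4 CPM against 64.7, 47.2, 165 and 73 (1.44, edgeR adjusted p = 0.00156).

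Col1a1, the alpha 1 chain of collagen I, was at 3096, 2458 and 2411 CPM against 1397, 1162, 1142 and 2143, with wild type at 3183 to 5120.4 (0.86, edgeR adjusted p = 0.00301, and 2.1 with the offsets). It was not called with SmoFF replicates 1 and 4 alone (0.55, adjusted p = 0.091). Dcn, a small proteoglycan of collagen fibrils, was at 18347, 22674 and 20254 CPM against 12387, 14350.0, 13052 and 9325 (0.73, edgeR adjusted p = 0.00383). Loxl1, which crosslinks elastin, went against these, at 156, 131 and 224 CPM against 629, 274, 480.0 and 616 (−1.55, edgeR adjusted p = 0.000155), and was not called with the offsets (−0.36, adjusted p = 0.184). In the basement membrane, Col4a2 was at 340.3, 274 and 392 CPM against 155, 109.5, 120.0 and 205 (1.18, edgeR adjusted p = 0.000651, and 2.57 with the offsets) and Col4a5 at 29.4 to 57.3 against 18.8 to 23.3 (1.15, and 1.81). Of 20 basement membrane genes, 3 were higher and 2 lower, against 9.88% and 13.7% of all genes.

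Proteases of the matrix and their inhibitors were split. Of 21 tested, 3 were higher and 6 lower, and the lower count was 3 without Ctnnb1FF replicate 1 or 2. The balance turned to 6 higher and 3 lower with the offsets and to 4 and 3 with upper quartile scaling. Timp2, an inhibitor that also helps to activate pro-MMP2, was at 414, 436 and 721 CPM against 1905, 1749, 2281 and 2069 (−1.93, SE 0.22, edgeR adjusted p = 2.79e-06, and −1.31 with the offsets). Mmp14, its membrane-bound partner, was at 73.2, 66.6 and 96.9 CPM against 229.8, 185, 284 and 254 (−1.59, edgeR adjusted p = 5.78e-05, and −0.95 with the offsets), and Plat, the tissue plasminogen activator, at 49.8, 70.4 and 129 against 234, 244, 395 and 238 (−1.74, edgeR adjusted p = 8.1e-05). Timp1, the inducible inhibitor, was higher, at 581, 960.3 and 214 CPM against 119, 166, 38.6 and 65.5 (2.59, edgeR adjusted p = 0.000625, and 1.44 with the offsets).

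Contractile genes, where called, were mostly higher in Ctnnb1FF. Of 19 tested, 7 were higher and 2 lower, with a median of 1.38, and with the offsets 7 were higher and 0 lower. Myl9, a myosin light chain, was at 151, 167 and 131 CPM against 38.3, 32.8, 10.9 and 14.5, with wild type at 30.4 to 51.2 (2.63, SE 0.33, edgeR adjusted p = 7.3e-06). Acta2, smooth muscle actin, was at 169.8, 194 and 39 CPM against 4.11, 50.5, 9.95 and 13.5 (2.78, edgeR adjusted p = 0.00114), where Ctnnb1FF replicate 3 lay below SmoFF replicate 2, and without that SmoFF library the change was 3.84. Tpm2, a tropomyosin, was at 62.4 to 142 against 21.5 to 48.5 CPM (1.55), and Mylk, myosin light chain kinase, at 40.7 to 83.6 against 15.6 to 35.6 (1.38, or 2.17 with the offsets). Ccn2, a matricellular protein induced by TGF-beta and YAP, was at 25.4, 20.5 and 73.9 CPM in Ctnnb1FF, 0.795, 3.02, 2.51 and 3.97 in SmoFF and 12.2, 8.64, 9.88, 30.1 and 9.01 in wild type (3.95, SE 0.56, edgeR adjusted p = 2.39e-05, or 3.27 without Ctnnb1FF replicate 3). Of 11 pericyte and smooth muscle markers tested, 2 were higher and 1 lower, with a summed level of 332 to 384 CPM against 231 to 279.6, and the part of such cells in these changes was not tested.

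**Figure D5:**
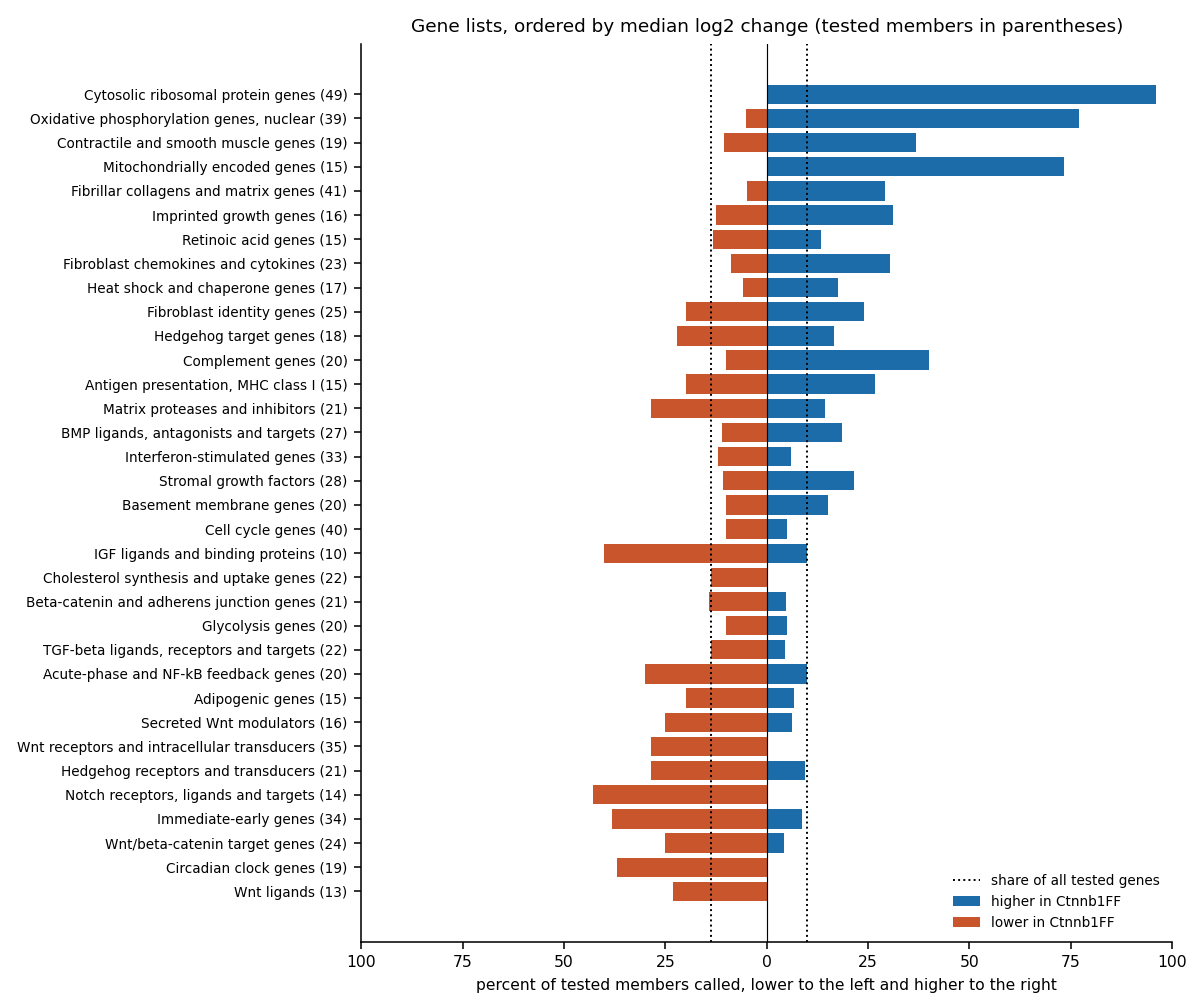
Percent of the tested members of 34 gene lists called higher (blue, to the right) and lower (orange, to the left) in Ctnnb1FF against SmoFF, ordered by the list's median log2 change, with the number tested in parentheses. Dotted lines mark the shares over all 24383 genes, 9.88% higher and 13.7% lower, which ribosomal protein, oxidative phosphorylation and mitochondrially encoded genes exceed most on the high side. The median transcripts of these lists, at 1128, 1249 and 955 bases, lie in the shortest quintile, where 44.8% of genes were called higher.

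Signals to immune cells differed gene by gene. Of 23 fibroblast chemokines and cytokines, 7 were higher and 2 lower, with 3 and 1 under the offsets and 4 and 1 without Ctnnb1FF replicate 2 or SmoFF replicate 3. Cxcl12, the retention signal of stromal niches, was at 2132, 2884 and 2222 CPM in Ctnnb1FF, 572, 506, 609 and 481 in SmoFF and 957, 1290.1, 1017, 891 and 1096 in wild type (2.15, SE 0.28, edgeR adjusted p = 9.4e-06). Wild type lay between the deletions in every library. Ccl11, the eosinophil chemokine eotaxin, was at 605, 827 and 534 CPM against 214, 126, 65.1 and 63.3 (2.48, edgeR adjusted p = 9.61e-05), and was not called with the offsets (0.93, adjusted p = 0.0586). Lif, a cytokine of the IL-6 family, was lower, at 0.0560, 0 and 0.650 CPM against 13.5, 5.5, 2.39 and 4.98 (−4.8, edgeR adjusted p = 0.00197), or −4.09 without Ctnnb1FF replicate 2 and −7.73 without Ctnnb1FF replicate 3. Of 16 immune cell markers 0 were higher and 1 lower, with a summed level of 61.4 to 181 CPM in Ctnnb1FF and 29.4 to 796 in SmoFF.

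Complement genes were higher in Ctnnb1FF for 8 of 20 and lower for 2, and with the offsets for 8 and 3. C3, the centre of the cascade, was at 9089, 10663 and 11913 CPM against 3882, 3081, 4342 and 4353 (1.43, SE 0.22, edgeR adjusted p = 6.8e-05, and 2.16 with the offsets). C1ra, a protease of the first complex, and Serping1, its inhibitor, were at 1019.9 to 1258 against 376 to 578 CPM (1.23) and 4864 to 6555 against 2327 to 3007 CPM (1.0). A protease of the cascade and its inhibitor were thus both among the higher genes.

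Interferon and antigen presentation genes were split. Of 33 interferon-stimulated genes, 2 were higher and 4 lower, shares below the 9.88% and 13.7% of all genes. Irf7, an amplifier of interferon transcription, was at 4.54, 1.57 and 1.75 CPM against 23.4, 18.9, 52.6 and 24.9 (−3.52, SE 0.54, edgeR adjusted p = 6.68e-05, and −2.78 with the offsets), and Ddx60, an RNA helicase, at 5.1, 3.64 and 3.75 against 12.6, 15.1, 31.2 and 20.6 (−2.26, edgeR adjusted p = 0.000689). Xaf1, a proapoptotic gene, was higher, at 37.3, 72.8 and 60.4 against 31.8, 12.2, 15.5 and 13.5 (1.64, edgeR adjusted p = 0.000971), as was Bst2, which tethers virions, at 106 to 185 against 42.1 to 56.7 (1.56), a call lost with the offsets (0.42, adjusted p = 0.154).

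Of 15 genes of MHC class I presentation, 4 were higher and 3 lower. B2m, the light chain of class I molecules, was at 4915, 5156 and 3943 CPM against 941, 1039.5, 769 and 515 (2.52, SE 0.26, edgeR adjusted p = 1.09e-06), and its change shrank to 0.64 with the offsets. H2-T23, a nonclassical class I chain with near copies in the same cluster, was at 125 to 141 against 20.2 to 42.6 CPM (2.25). Tapbp, which loads peptide onto class I molecules, was lower, at 81.1, 110.2 and 102 against 207, 227, 332 and 223 (−1.34, edgeR adjusted p = 2.86e-05, and −0.53 with the offsets).

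Immediate-early genes, which respond within minutes to stimuli that include cell dissociation, were, where called, mostly lower in Ctnnb1FF. Of 34 tested, 3 were higher and 13 lower, with a median of −0.91, and 1 and 5 with the offsets. Without Ctnnb1FF replicate 1, 2 or 3 the lower count was 4, 6 or 8, and with the ribosomal RNA share as a covariate 4 were higher and 4 lower. Against wild type 7 were higher and 3 lower in Ctnnb1FF. Jund was at 19.5, 21.8 and 35.7 CPM in Ctnnb1FF, 108, 128, 216 and 229 in SmoFF and 74.1, 48.5, 40, 112 and 127 in wild type (−2.73, SE 0.40, edgeR adjusted p = 3.59e-05, and −1.85 with the offsets). Junb was at 198, 204 and 189.7 CPM against 618, 405, 752 and 765 (−1.69, edgeR adjusted p = 0.000602, and −0.99 with the offsets), and Klf2 at 31.9 to 66.6 against 121 to 314 (−2.06, and −1.43). Fosl2 was at 28.8 to 81.8 against 104 to 124 (−1.12) and lost its call without Ctnnb1FF replicate 1 (−0.69) and with the offsets (−0.37).

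Among 20 acute-phase and NF-kB feedback genes, 2 were higher and 6 lower. Relb, a subunit of NF-kB, was at 4.59, 5.8 and 7.2 CPM against 28.3, 17.7, 18.4 and 13.9 (−1.74, edgeR adjusted p = 0.000227, and −0.92 with the offsets). Tnfaip2 was at 25.4 to 30.6 against 55.8 to 82.6 (−1.26), a call lost with the offsets (−0.32, adjusted p = 0.369). Vcam1, an adhesion molecule for leukocytes, was higher, at 136, 104 and 135 CPM against 76.8, 89.2, 60.2 and 71.8 (0.75, edgeR adjusted p = 0.00423).

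Clock genes were lower in Ctnnb1FF for 7 of 19 and higher for 0, with a median of −1.19, and without Ctnnb1FF replicate 1 for 4. The output factors Tef and Hlf were at 12.6, 2.66 and 3.3 CPM against 61.2, 39.8, 30.3 and 13.1 (−2.55, edgeR adjusted p = 0.00217) and at 1.29, 4.74 and 2.65 against 23.7, 23.9, 15.6 and 6.38 (−2.58, edgeR adjusted p = 0.00295). Wild type stood at 6.9 to 11 and 1.84 to 3.0 CPM in these 2 genes, which overlaps Ctnnb1FF, so that SmoFF was the group apart. Without Ctnnb1FF replicate 1 the change in Tef was −3.47. Per2, a repressor of the core loop, was at 0.672, 0.0392 and 4.3 CPM against 14.3, 7.63, 30 and 9.68 (−3.21, edgeR adjusted p = 0.00886, and −2.45 with the offsets), with −2.51 and −5.39 without Ctnnb1FF replicates 2 and 3 and no call in the fit of only the 7 libraries. The labels give no time of day for the collection, so clock phase and genotype cannot be told apart.

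Among other signalling families, BMP genes were called in both directions. Of 27 tested, 5 were higher and 3 lower, where 9.88% and 13.7% of all genes were, and the lower share was below the latter. Id2, a BMP target that blocks bHLH factors, was at 313, 391 and 329 CPM against 85.9, 115, 93.5 and 103, with wild type at 76.2 to 132 (1.79, SE 0.24, edgeR adjusted p = 1.05e-05). Bmpr1a, a type I receptor, was at 150.1, 188 and 163 CPM against 85.5, 75.4, 54.3 and 70.4 (1.22, edgeR adjusted p = 6.7e-05). Smad6, the inhibitory Smad, was lower, at 2.46, 0.940 and 2.3 against 8.7, 17.9, 13.4 and 8.82 (−2.68, edgeR adjusted p = 0.000254, and −1.69 with the offsets). Bmp1, which is a procollagen protease and no BMP ligand, was at 43.8 to 70.1 against 81.5 to 268 (−1.67) and was not called with the offsets (−0.61, adjusted p = 0.0581).

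Of 22 TGF-beta genes 1, Ccn2, was higher and 3 were lower, and with the offsets 4 were higher and 2 lower. The lower count was 1 without Ctnnb1FF replicate 3 and 5 without SmoFF replicate 2. Smad3, a mediator of TGF-beta signals, was at 15.3, 12.3 and 18.9 CPM against 56.6, 25, 37 and 53.5 (−1.47, edgeR adjusted p = 0.000423, and −0.77 with the offsets). Of 14 Notch genes 0 were higher and 6 lower, with 2 lower under the offsets or without SmoFF replicate 3, and 1 without Ctnnb1FF replicate 2 or 3. Hes1, a repressor induced by Notch, was at 31.1, 39.8 and 33.5 CPM in Ctnnb1FF, 47.5, 122, 109 and 78.5 in SmoFF and 25.6, 36.7, 31, 36.3 and 54.2 in wild type (−1.36, edgeR adjusted p = 0.00127, and −1.97 with the offsets). Ctnnb1FF and wild type overlapped in Hes1.

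Growth factors that fibroblasts send to epithelium included genes higher in Ctnnb1FF. Of 28 tested, 6 were higher and 3 lower, against 9.88% and 13.7% of all genes. Hgf, the ligand of Met, was at 82.5, 62.2 and 50.4 CPM against 16, 15.8, 24.9 and 16.2 (1.83, edgeR adjusted p = 0.000337), with wild type at 13.1 to 23.6. Fgf7, a ligand of epithelial Fgfr2, was at 153, 174 and 109 CPM against 42.9, 48.3, 84.3 and 35.1 (1.46, edgeR adjusted p = 0.00102). Of 10 IGF genes 1 was higher and 4 lower, with 3 and 3 under the offsets. Igf1 was at 1568, 1152 and 1063 CPM against 516, 489.5, 472 and 699.7 (1.21, edgeR adjusted p = 0.000444), while the binding proteins Igfbp5 and Igfbp7 were at 86, 50.6 and 161 against 769.9, 481, 459 and 451 (−2.45, edgeR adjusted p = 0.000251) and 538, 595 and 515 against 1335, 1694, 1510.1 and 1609.5 (−1.48, edgeR adjusted p = 0.000526). SmoFF was above all wild type libraries in Igfbp5, which stood there at 158 to 241 CPM.

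Markers of fibroblast subsets were also split, with 6 of 25 identity genes higher and 5 lower, the latter 0 without Ctnnb1FF replicate 1. Of all genes 9.88% were higher and 13.7% lower. Lepr, the leptin receptor, was at 101, 126 and 99.9 CPM against 11.4, 17.2, 19 and 16.9 (2.75, edgeR adjusted p = 0.000698) and Meox2, a homeobox factor, at 33.9, 40.5 and 37.2 against 9.62, 14.8, 5.89 and 3.97 (2.12, edgeR adjusted p = 0.000639). Gsn, the actin-severing protein, was at 2985, 3096 and 5214 CPM against 9585, 4687, 11465 and 7735, with overlap (−1.15, edgeR adjusted p = 0.00622), and was not called with the offsets (−0.4), without Ctnnb1FF replicate 1 (−0.88) or without Ctnnb1FF replicate 2 (−0.92). Apoe was at 6947, 6136 and 6606 CPM against 2564, 1821, 2084 and 1937 (1.64, edgeR adjusted p = 0.000209).

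Imprinted growth genes included 5 of 16 higher and 2 lower. Peg3, a paternally expressed zinc finger gene, was at 159.6, 148 and 135 CPM against 56.5, 41.2, 83 and 71 (1.23, edgeR adjusted p = 0.00156). Nnat, another paternally expressed gene, had 0 counts in Ctnnb1FF against 6.93, 4.11, 3.03 and 1.28 CPM in SmoFF and was called (edgeR adjusted p = 0.000609). With 3 counts per library as the floor, it was at least 26.4-fold lower. Of 40 cell cycle genes 2 were higher and 4 lower, shares below the 9.88% and 13.7% of all genes. Without SmoFF replicate 1 the counts were 5 and 3. The D cyclins Ccnd2 and Ccnd3, which open the G1 phase, were at 27.9, 15.5 and 35.2 CPM against 98.6, 130.3, 132 and 112 (−2.17, edgeR adjusted p = 2.02e-05) and 38.3, 7.68 and 36.7 against 123, 71.1, 84.6 and 105 (−1.8, edgeR adjusted p = 0.00106, and −0.96 with the offsets). Of 20 glycolysis genes 1 was higher and 2 lower, also shares below those of all genes. Eno2, a neuronal-type enolase, was at 4.42, 1.8 and 3.2 CPM against 12.9, 16.2, 24.1 and 23.6 (−2.61, edgeR adjusted p = 1.94e-05, and −2.02 with the offsets).

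Heat shock and chaperone genes had 3 higher and 1 lower of 17 (2 and 2 with the offsets), retinoic acid genes 2 and 2 of 15, adipogenic genes 1 and 3 of 15 (1 and 1 with the offsets), and cholesterol genes 0 and 3 of 22. Of all genes tested 9.88% were higher and 13.7% lower, and the lower shares of retinoic acid and cholesterol genes were close to the latter. The lower adipogenic count was 0 without Ctnnb1FF replicate 2 or 3.

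Among markers of other cell types, those of bile duct epithelium went 0 higher and 3 lower of 17, with a summed level of 30.9 to 261 CPM in Ctnnb1FF and 66 to 363 in SmoFF, and 5 of the 18 listed were at 0 in all Ctnnb1FF libraries. Krt19, a keratin that mesothelium shares, was at 24.5, 4.31 and 1.15 CPM against 45.2, 139, 25.7 and 57.1 (−2.75, edgeR adjusted p = 0.0139), and was not called without Ctnnb1FF replicate 2 (−2.3) or 3 (−2.13), while it was −4.46 without Ctnnb1FF replicate 1 and −2.12 without SmoFF replicate 2. Endothelial markers went 1 higher and 2 lower of 11, with summed levels of 55.3 to 103 and 88.4 to 127 CPM. Kdr, a VEGF receptor, was at 0, 0 and 0.100 CPM against 11.1, 14.2, 8.8 and 4.32 and was called lower (edgeR adjusted p = 0.000825), and Plvap, a protein of vessel fenestrae, was higher, at 27.6, 70.2 and 21.3 against 8.83, 3.67, 3.23 and 8.75 (2.7, edgeR adjusted p = 0.000159, 3.42 with the offsets and 2.09 without Ctnnb1FF replicate 2). Hepatocyte markers had 0 higher and 1 lower of 6, Schwann and nerve markers 0 and 1 of 8, and acinar and erythroid markers 0 called of 14 and of 3. The part of such cells in the changes above was not tested.

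Which group departed from the rest was read across all 23 Pdgfra libraries, as a description. Among the 5754 called genes, the Ctnnb1FF libraries lay beyond all other 20 for 830, being higher for 544 and lower for 286. The SmoFF libraries lay beyond all other 19 for 83, being higher for 42 and lower for 41, and 10 genes were of both kinds. Over all genes tested these shares were 3.69% and 0.463%. Against wild type, 4852 genes (19.9%) were called in Ctnnb1FF, 1961 higher and 2891 lower, and 377 (1.55%) in SmoFF, 70 higher and 307 lower. The last count ran from 19 with wild type 4 and 5 as the only controls to 1122 with wild type 1 to 3, which differ in the pseudogene measure, and that in Ctnnb1FF was 3449 and 3431. These 2 comparisons share their wild type libraries. In that of Ctnnb1FF, genotype and sex-linked transcripts cannot be told apart.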

How the data were processed

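RNA of about 1000 sorted cells per animal was made into full-length cDNA with a Smartseq3 protocol and into libraries with a fragmentation kit, per the labels' protocols. The authors deposited raw counts per gene symbol, 1 column per library, without normalization. The build is mm10, per the submitters' processing notes, while the sources used here do not give the aligner, the counter, the annotation or whether strand was used. The tables hold 55401 rows with 55291 distinct symbols, of which 53292 matched GENCODE M21, used for coordinates, class, length and GC content, and the 110 repeat symbols were kept as rows of their own.

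All 23 Pdgfra libraries entered one edgeR 4.0.16 quasi-likelihood fit (R 4.3.3) after edgeR's default filter and TMM scaling, with Benjamini-Hochberg adjustment over all 24383 genes. Pooling the groups shares 1 estimate of the spread. CPM values are counts relative to the TMM-scaled library size. Library measures were compared by exact two-sided permutation. Replicates of a group differed by more than counting noise. On simulated counts for 22689 genes of this comparison the fit recovered 4 of 100 2-fold and 22 of 100 4-fold changes, with 0 false calls. Promoter windows came from RefSeq. Alternatives used DESeq2 1.42.0, limma 3.58.1, other scalings, filters, covariates and sets of libraries. Of these, 3 were added after seeing the data. They were SmoFF replicates 1 and 4 alone, scaling on protein-coding genes outside ribosomal protein and mitochondrially encoded genes, and length and GC offsets.

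The named genes are Smo, Ctnnb1 and 8 pathway genes, the 12 largest rises and 12 largest falls among called genes whose mean log2 CPM reached 3 and whose groups were apart, and up to 4 called members of each of 44 lists. Nkd1, Fgf18 and the other list genes fall under the last part, and Tnfrsf19, Pdgfra, Rpl19, Rpl37 and Rps25 were added after their values were seen. The members and lists were chosen with earlier results of these data known. Of the 174 genes that the rule names, 51 are not reported here. The 6 Gli1-lineage libraries were not used here.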

Additional observations from a re-analysis of the deposited data

Results flagged for a closer look

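Over genes of the text and the library measures, 172 groups of 4 or 5 libraries were examined. Of these, 15 (8.72%) held a library far from the rest of its group. Chance gives about 1 in 20 for normally distributed values, which CPM need not be.

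In SmoFF replicate 2, Gli3 was low at 21.6 CPM, with the next library at 48.1, Tnfrsf19 was low at 9.82 with the next at 24.5, and Lef1 was high at 2.19 with the next at 0.156. SmoFF replicate 3 was high in Apod (43.4 CPM, next 16.2), Plat (394.7, next 244.5), Tapbp (331.5, next 227.0) and Hgf (24.9, next 16.2). SmoFF replicate 1 was high in Xaf1 (31.8 CPM, next 15.5) and Igfbp5 (769.9, next 480.9), and SmoFF replicate 4 was low in Ccl19 (7.50 CPM, next 11.8) and Serping1 (2327, next 2891).

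In wild type, replicate 5 was high in Gli1 (26.9 CPM, next 13.4) and low in Lum (1555, next 1846), replicate 2 was high in Ifitm1 (95.4, next 59.9) and replicate 4 was high in Ccn2 (30.1, next 12.2). Groups of 3, such as Ctnnb1FF, were not examined in this way.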

How the results depend on the processing

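The count of genes called between Ctnnb1FF and SmoFF, 5754, ran from 3854 (without Ctnnb1FF replicate 2) to 5544 when 1 library was left out, and was 3528 with only the 7 libraries in the fit, 3779 with the ribosomal RNA share as a covariate and 7541 by DESeq2. The Ctnnb1FF comparison with wild type, 4852, ran from 3051 (without Ctnnb1FF replicate 2) to 4594 over libraries left out. The SmoFF comparison with wild type, 377, ran from 121 to 685 over libraries left out, and was 1111 by DESeq2, 913 without a filter on low counts, 19 with wild type 4 and 5 and 1122 with wild type 1 to 3 as controls. Of the 174 genes that the naming rule gives, 167 were called, and 102 of these kept direction and call in every alternative tried, as did 96 of the 124 called genes in the text. In 43 of 44 lists an alternative moved a count by over 1.5 times. With length and GC offsets Gli2 was at 0.39 (edgeR adjusted p = 0.563), mt-Co2 at −0.51 (0.0529) and mt-Co3 at −0.90 (0.00039), each on the other side of 0, and the cause was not tested.

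Same-numbered Ctnnb1FF and SmoFF libraries correlated in their deviations from the group means at −0.01, 0.12 and 0.11 over 8751 genes. Different-numbered ones correlated at −0.17 to 0.10, so the values of replicates 2 and 3 were the highest, though low. The labels do not say that equal numbers share an animal, litter or day, and the numbers were not taken as pairs. With the replicate number as a block, 4419 genes were called between the deletions, 3261 in Ctnnb1FF against wild type and 498 in SmoFF against wild type. Lef1 had 0 counts in all Ctnnb1FF libraries and in SmoFF replicates 1 and 3, and a difference was not detectable at this depth.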
